A study of Sorghum bicolor with 15 samples.

Results

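The 7 genes described here encode enzymes of carbohydrate metabolism and of the cell wall in roots of sorghum (Sorghum bicolor). They are Sobic.001G179400, Sobic.001G123201, Sobic.001G123300, Sobic.001G261600, Sobic.001G357900, Sobic.001G384600 and Sobic.001G384100, out of 34129 genes in the count table, of which 18473 were abundant enough to be tested. The genes were chosen by 2 things: an annotation to carbohydrate metabolism or the cell wall, and a lower level in the variety SRN39 than in the variety Shanqui Red (SQR) in 28-day-old roots. The difference between the varieties at 28 d is therefore given as a description without a test, as are the differences between ages, which use the same 28 d libraries. Only the difference between the varieties at 35 d was tested. The identifiers of the 7 genes all begin with the same prefix, so the genes are no survey of the genome.

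Whole root systems of SQR and SRN39 were collected from 28- and 35-day-old plants. All plants grew first in a plug of sterilised soil and then in sand-filled cones, with a nutrient solution low in phosphate. The titles of all libraries carry the same label, S_CTR, so it does not differ between groups. There were 4 libraries for SQR at 28 d, 3 for SQR at 35 d, 4 for SRN39 at 28 d and 4 for SRN39 at 35 d, described as biological replicates. The varieties are separate backgrounds, and no transgene or single-gene mutant was compared, so the effects of individual loci cannot be told apart.

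The plant cell wall is a network of cellulose fibrils, hemicelluloses such as xyloglucan and mixed-linkage glucan, and pectin. Growing roots build and remodel it with enzymes that synthesise, cut or rejoin these polymers. Xyloglucan endotransglucosylase/hydrolases (XTH) cut xyloglucan chains and can join them to other chains. Endoglucanases of the KORRIGAN type sit in membranes and are needed for normal cellulose synthesis in Arabidopsis, glucanases of the callose-degrading family cut glucan chains, and beta-glucosidases release glucose from glucosides and short sugar chains. Phosphoglycerate mutase works inside the cell, in glycolysis.

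Libraries were made from the 3′ ends of mRNA, and each contained 6369710 to 17304929 reads counted on genes. Levels are given in CPM, in which the reads of a gene are scaled to the reads counted in its library, with a further scaling factor between libraries. No pair of libraries held identical counts. All 7 genes passed the filter of more than 1 CPM in at least 3 libraries, but Sobic.001G384600 passed only through SQR, in which all 7 libraries exceeded 1 CPM against 2 of the SRN39 libraries. In whole roots, fewer cells of a type and less RNA per cell cannot be told apart.

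At 35 d, 4 of the 7 genes were lower in SRN39 than in SQR, none was higher, and 3 were not called. The 4 were the XTH9 match Sobic.001G179400, the beta-glucosidase Sobic.001G123201, the cellulase-type gene Sobic.001G261600 and the KORRIGAN match Sobic.001G384600. The background at 35 d was broad: of all tested genes, 35.6% were called in either direction, 19.4% lower in SRN39 and 16.3% higher (edgeR, adjusted p under 0.05). The 4 genes lower in SRN39 made up 57.1% of the 7. Since Sobic.001G384600 entered the test only through SQR, where it is high, the count without it was 3 of 6, or 50%. The median log2 fold change of the 7 genes was -0.96, against -0.06 over all tested genes. Genes lower in SRN39 at 28 d were often lower at 35 d too: over the whole table, 958 of 1615 genes called lower at 28 d were also called lower at 35 d, or 59.3%. The 7 genes were chosen by that difference, so the persistence of the 4 is not read as particular to them.

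**Figure D1:**
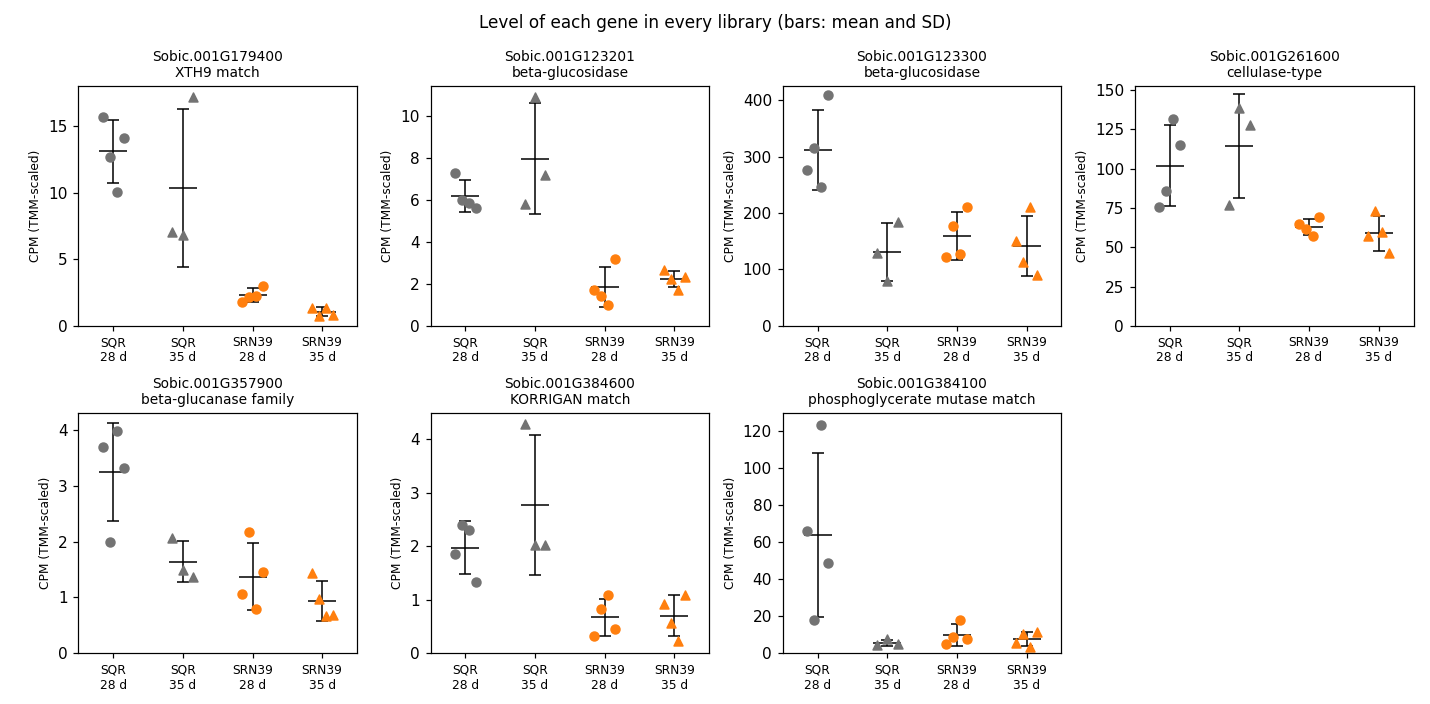
Level of each gene in each of the 15 libraries, in CPM on a linear axis. SQR and SRN39 at 28 and 35 d are in separate columns, with bars for the mean and SD of each group. At 35 d, the SQR and SRN39 points are separate in 4 genes and overlap in Sobic.001G123300, Sobic.001G357900 and Sobic.001G384100.

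The gene with the widest separation at 35 d was Sobic.001G179400, whose best Arabidopsis match is XTH9, a wall-remodelling enzyme acting on xyloglucan. In SQR it stood at 15.7, 12.7, 10.1 and 14.1 CPM in the 4 libraries of 28 d and at 7.04, 6.79 and 17.2 CPM in the 3 of 35 d. In SRN39 it stood at 1.80, 2.17, 2.27 and 3.00 CPM at 28 d and at 1.33, 0.721, 1.33 and 0.815 CPM at 35 d. Every SRN39 library was below every SQR library at both ages. Group means were 13.1 ± 2.38 CPM (SD, n = 4) and 2.31 ± 0.506 CPM (SD, n = 4) at 28 d for SQR and SRN39. At 35 d they were 10.3 ± 5.93 CPM (SD, n = 3) and 1.05 ± 0.326 CPM (SD, n = 4). The transcript was 9.85-fold lower in SRN39 at 35 d (log2 fold change -3.30, SE 0.35, adjusted p = 1.8e-06). Replicate 3 of SQR was the highest of its group at 35 d, and without it the log2 fold change was -2.72. The SRN39 libraries at 35 d held only 9 to 18 reads of this gene each.

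The smaller of the beta-glucosidase transcripts, Sobic.001G123201, kept a lower level in SRN39 at both ages. Its best Arabidopsis match is BGLU44, a beta-glucosidase. The SQR libraries gave 7.28, 6.0, 5.84 and 5.63 CPM at 28 d and 5.81, 10.9 and 7.18 CPM at 35 d. In SRN39 the values were 1.69, 1.44, 0.985 and 3.19 CPM at 28 d and 2.66, 2.24, 1.70 and 2.31 CPM at 35 d. The libraries of the 2 varieties did not overlap at either age. At 35 d the gene averaged 7.97 ± 2.65 CPM (SD, n = 3) in SQR and 2.23 ± 0.396 CPM (SD, n = 4) in SRN39. This was a 3.58-fold lower level in SRN39 (log2 fold change -1.84, SE 0.32, adjusted p = 0.00026).

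The other gene matching BGLU44, Sobic.001G123300, collected far more reads and had a lower level at 35 d than at 28 d in SQR. In SQR it stood at 276.8, 315.2, 246.6 and 408.4 CPM at 28 d and at 129.0, 79.5 and 183.4 CPM at 35 d. In SRN39 it stood at 122.6, 177.5, 127.6 and 211.0 CPM at 28 d and at 151.0, 112.4, 210.9 and 89.7 CPM at 35 d. All SQR libraries of 28 d were above all other libraries, and at 35 d the varieties overlapped. Means were 312 ± 70.3 CPM (SD, n = 4) in SQR and 160 ± 42.2 CPM (SD, n = 4) in SRN39 at 28 d. At 35 d they were 131 ± 52.0 CPM (SD, n = 3) and 141.0 ± 53.0 CPM (SD, n = 4). No difference was called at 35 d (log2 fold change 0.11, 95% interval -0.54 to 0.76, adjusted p = 0.81), and that interval covers changes in both directions. Its sign turned when single libraries were left out, to -0.15 without replicate 2 of SQR or without replicate 3 of SRN39 at 35 d.

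The 2 beta-glucosidase genes are adjacent in the order of gene identifiers, with no listed gene between them, and share their best Arabidopsis match. If reads of one can map to the other, their counts are uncertain. The share of Sobic.001G123201 in the summed reads of both genes was 4.31, 12.1 and 3.77% in the SQR libraries at 35 d. It was 1.73, 1.96, 0.799 and 2.51% in those of SRN39, below every SQR library. The mean log2 ratio of reads of Sobic.001G123201 to Sobic.001G123300 was -4.0 in SQR and -5.93 in SRN39, a difference of -1.92 (two-sided exact permutation test, p = 0.0571). This is the smallest p that 3 against 4 libraries allow, so the test could not pass 0.05. At 28 d the share was 2.03 ± 0.529% (SD, n = 4) in SQR and 1.11 ± 0.373% (SD, n = 4) in SRN39.

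**Figure D2:**
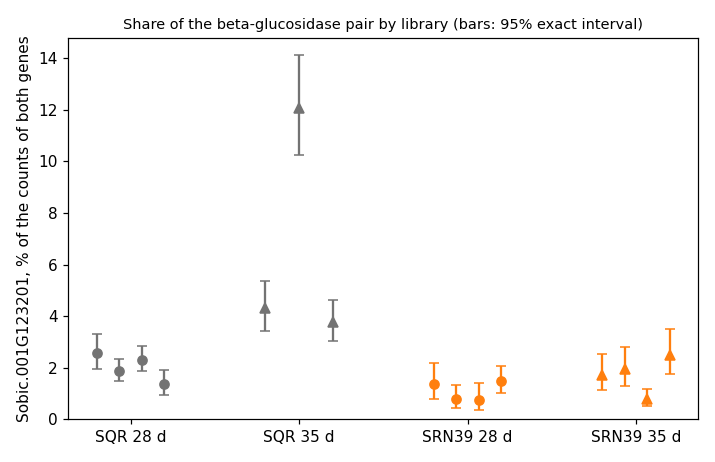
Share of Sobic.001G123201 in the reads counted on both beta-glucosidase genes, in percent, for each library of SQR and SRN39 at 28 and 35 d. Vertical bars are exact 95% binomial intervals that cover counting error only, and the highest point is replicate 2 of SQR at 35 d at 12.1%.

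Sobic.001G261600, whose rice match is a putative cellulase, showed the smallest difference of the 4 called genes. The values in SQR were 75.5, 85.7, 131.7 and 114.8 CPM at 28 d and 76.6, 138.7 and 127.7 CPM at 35 d. In SRN39 it stood at 64.6, 61.4, 57.3 and 69.3 CPM at 28 d and at 56.9, 73.1, 59.5 and 46.1 CPM at 35 d. The varieties did not overlap at either age, although the lowest SQR library and the highest SRN39 library at 35 d were only 76.6 and 73.1 CPM. Means at 35 d were 114 ± 33.1 CPM (SD, n = 3) and 58.9 ± 11.1 CPM (SD, n = 4), a 1.94-fold lower level in SRN39 (log2 fold change -0.96, SE 0.22, adjusted p = 0.0032). Its level changed little with age, by 0.17 (SE 0.23) in SQR and -0.10 (SE 0.21) in SRN39 on the log2 scale.

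Sobic.001G384600, the KORRIGAN match, rested on few reads in both varieties. In SQR it stood at 1.85, 2.40, 2.31 and 1.33 CPM at 28 d and at 4.28, 2.03 and 2.02 CPM at 35 d. In SRN39 it stood at 0.317, 0.825, 1.08 and 0.455 CPM at 28 d and at 0.920, 0.561, 0.222 and 1.09 CPM at 35 d. No SRN39 library reached the lowest SQR library of its age. Means at 35 d were 2.78 ± 1.31 CPM (SD, n = 3) and 0.697 ± 0.386 CPM (SD, n = 4), a 3.96-fold lower level in SRN39 (log2 fold change -1.98, SE 0.47, adjusted p = 0.0038). The SRN39 values at 35 d rest on 3 to 16 reads per library. The gene passed the filter only through its SQR libraries, and with no filter on low counts the log2 fold change was -1.95 (adjusted p = 0.0036).

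Sobic.001G357900 belongs to the family of callose-degrading glucanases and also rested on few reads. The SQR values were 3.70, 2.0, 3.98 and 3.31 CPM at 28 d and 2.07, 1.48 and 1.37 CPM at 35 d. In SRN39 it stood at 1.06, 2.17, 0.788 and 1.46 CPM at 28 d and at 1.43, 0.962, 0.665 and 0.679 CPM at 35 d. The varieties overlapped at both ages, at 35 d only through SRN39 replicate 1, which at 1.43 CPM was above the lowest SQR library. The log2 fold change at 35 d was -0.83 (95% interval -1.67 to 0.01, adjusted p = 0.11) and was not called. The estimate rests on 9 to 14 reads in each SRN39 library, and with all libraries thinned to the smallest total it was -0.36.

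Sobic.001G384100, matched to a cofactor-independent phosphoglycerate mutase of glycolysis, is the one gene here whose annotation is not to a wall or glycan hydrolase. In SQR it stood at 65.9, 17.9, 123.5 and 48.7 CPM at 28 d and at 4.51, 7.33 and 4.68 CPM at 35 d. In SRN39 it stood at 4.76, 8.56, 18.1 and 7.38 CPM at 28 d and at 5.31, 10.5, 3.25 and 11.3 CPM at 35 d. The SQR libraries of 28 d stood above the other groups, except that replicate 2 of SQR (17.9 CPM) and replicate 3 of SRN39 (18.1 CPM) met. At 35 d the varieties overlapped, at 5.51 ± 1.58 CPM (SD, n = 3) and 7.59 ± 3.92 CPM (SD, n = 4). No difference was called (log2 fold change 0.47, 95% interval -0.72 to 1.65, adjusted p = 0.55). Libraries of one group varied more in this gene than in most: the SD of log2 CPM within groups was 0.87, at percentile 95.1 of all tested genes, against 0.32 to 0.59 in the other 6 genes and a median of 0.37 over all tested genes.

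**Figure D3:**
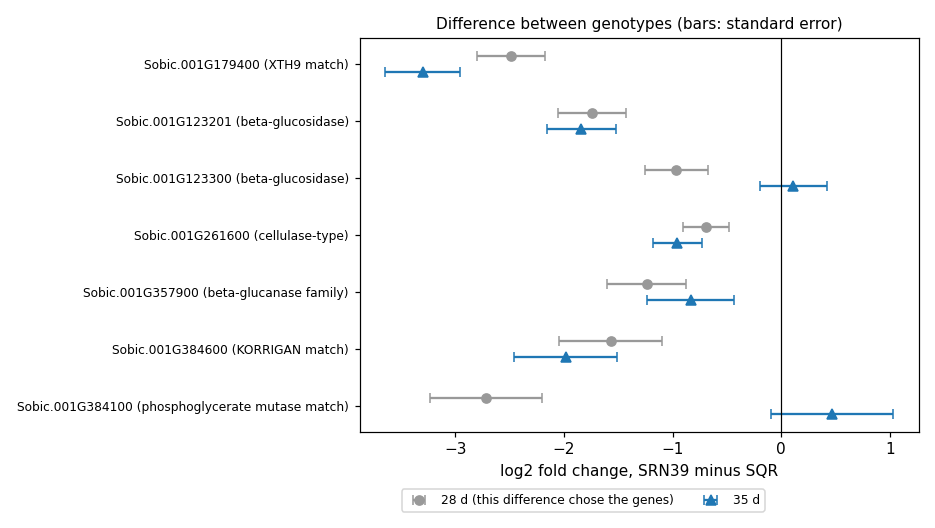
Log2 fold change of SRN39 against SQR for each of the 7 genes at 28 d, the difference that chose the genes, and at 35 d, with standard errors as bars. Values at 35 d run from -3.30 in Sobic.001G179400 to 0.47 in Sobic.001G384100.

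At 28 d, the age that chose the genes, the log2 fold changes were -2.49 (SE 0.31) for Sobic.001G179400, the XTH9 match, and -2.72 (SE 0.52) for Sobic.001G384100, the mutase match. The beta-glucosidase genes Sobic.001G123201 and Sobic.001G123300 differed by -1.74 (SE 0.31) and -0.96 (SE 0.29). Sobic.001G384600, Sobic.001G357900 and Sobic.001G261600 differed by -1.57 (SE 0.47), -1.24 (SE 0.36) and -0.69 (SE 0.21). The SRN39 libraries lay wholly below those of SQR in 4 genes at 35 d. Over all tested genes 18.8% showed such a separation, with SRN39 lower, at 35 d.

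The differences between ages reuse the 28 d libraries that chose the genes and the 35 d libraries compared above, so they describe the same values in another way. In SQR, the log2 difference of 35 d against 28 d was -3.54 (SE 0.61) for Sobic.001G384100, the mutase match, and -1.25 (SE 0.32) for the beta-glucosidase Sobic.001G123300, both without overlap between ages. For Sobic.001G357900, the glucanase-family gene, it was -0.98 (SE 0.38). In SRN39 the same genes differed between ages by -0.35 (SE 0.51), -0.18 (SE 0.28) and -0.57 (SE 0.39). The age difference of SRN39 minus that of SQR was 3.19 (SE 0.77) for the mutase match and 1.07 (SE 0.42) for Sobic.001G123300. In both genes the SQR values at 35 d were at the level of SRN39.

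For the 4 genes called at 35 d, the log2 differences between ages in SQR were -0.34 (SE 0.31) for Sobic.001G179400, 0.36 (SE 0.30) for Sobic.001G123201, 0.17 (SE 0.23) for Sobic.001G261600 and 0.47 (SE 0.45) for Sobic.001G384600. The value of Sobic.001G179400 was -0.92 without replicate 3 of SQR at 35 d, near that of Sobic.001G357900, which was not called. In SRN39, this XTH9 match was the one gene of the 7 whose libraries did not overlap between ages, with a log2 difference of -1.15 (SE 0.35). The other 6 overlapped between ages in SRN39, and in SQR 5 of the 7 did. Over all tested genes, every library of 35 d was below every library of 28 d in 17.3% in SRN39 and 7.22% in SQR, and nothing is read from the counts of the 7, which the 28 d libraries chose.

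**Figure D4:**
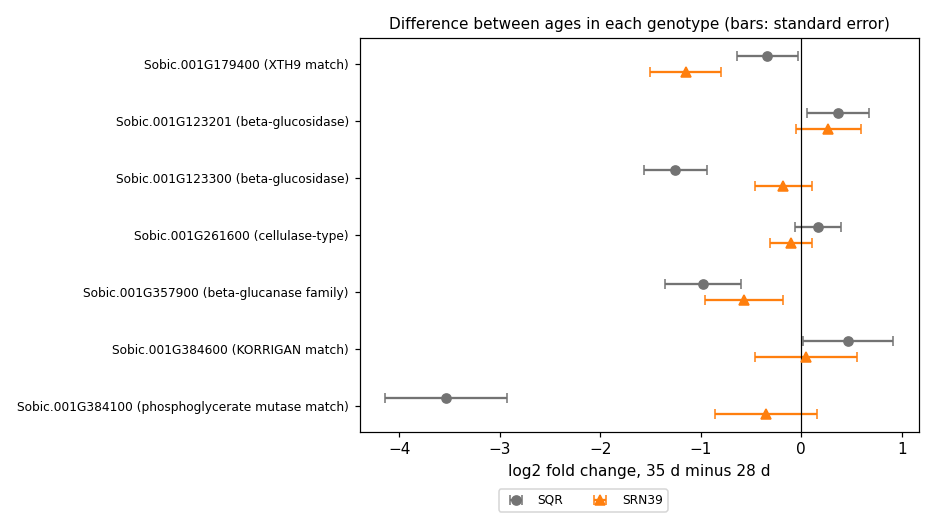
Log2 fold change of 35 d against 28 d for each of the 7 genes in SQR and in SRN39, with standard errors as bars. The mutase match Sobic.001G384100 stands furthest from 0, at -3.54 in SQR against -0.35 in SRN39.

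No single library of SQR at 35 d was high in all genes. Replicate 3 was the highest for Sobic.001G179400 and Sobic.001G123300, replicate 2 for Sobic.001G123201, Sobic.001G261600 and Sobic.001G384100, and replicate 1 for Sobic.001G357900 and Sobic.001G384600. The profiles of the 7 genes over the 15 libraries were not close to one another. Measured as the root mean square difference of centred log2 CPM, the closest pair was Sobic.001G123300 and Sobic.001G357900 at 0.59, and 866 tested genes were nearer to Sobic.001G357900 than its partner was. The gene nearest to the XTH9 match was Sobic.003G200501, at 0.40, and the gene nearest to the mutase match was Sobic.004G047900, at 0.44. The sources used here pair no names with those identifiers.

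The tested genes next to each of the 7 in the order of identifiers were counted by their calls at 35 d. Of the 6 genes closest to Sobic.001G179400, 1 was called lower in SRN39, 2 higher and 3 were not called. Around Sobic.001G123300 and around Sobic.001G261600, 3 of 6 were called lower and none higher. Around Sobic.001G123201, Sobic.001G357900 and Sobic.001G384600, 2 of 6 were called lower and 1 higher in each case. Sobic.001G123201 and Sobic.001G123300 are adjacent, so each is counted among the neighbours of the other. The counts around them also share genes. Around Sobic.001G384100, 1 of 6 was called lower and 1 higher. With 19.4% of all tested genes lower and 16.3% higher, so few neighbours allow no reading beyond these counts. Sobic.001G384100 and Sobic.001G384600 lie near each other, with 4 genes between them, so the counts around these 2 share genes too. The former was not called at 35 d, while the latter was lower in SRN39.

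Another 20 genes have annotations to the cell wall or to sugar metabolism. They come from the same set of genes that differed between varieties at 28 d, in either direction. Their identifiers all begin with the same prefix as those of the genes above, while the background covers all tested genes. The counts are therefore no survey of wall and sugar genes over the genome. At 35 d, 13 of the 20 were called, 4 lower and 9 higher in SRN39, which is 65% against the background of 35.6%. Since these genes too were chosen by their difference at 28 d, the higher share is not read as a result about the cell wall. Their median log2 fold change was 0.46, against -0.06 over all tested genes. Of the 8 that were lower in SRN39 at 28 d, 4 were called lower at 35 d and 1 was called higher. Of the 12 that were higher at 28 d, 8 were called higher at 35 d and none lower. Over the whole table, 1117 of 1598 genes called higher at 28 d were also called higher at 35 d, or 69.9%.

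Among the genes for wall loosening, pectin and wall proteins, 3 of 8 were lower in SRN39 at 35 d, 2 were higher and 3 were not called. The largest differences of the 20 were in genes matched in rice to glycine-rich cell wall structural proteins, which strengthen walls. Sobic.001G232500 averaged 64.3 ± 31.4 CPM (SD, n = 3) in SQR and 0.788 ± 0.272 CPM (SD, n = 4) in SRN39 at 35 d (log2 fold change -6.33, SE 0.40, adjusted p = 5e-09). Sobic.001G232200 averaged 55.7 ± 15.8 CPM (SD, n = 3) and 5.84 ± 1.73 CPM (SD, n = 4) (log2 fold change -3.26, SE 0.33, adjusted p = 1.3e-06). Both genes had every SRN39 library below every SQR library.

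Beta-expansins, which loosen walls without cutting their polymers, went in more than 1 direction. Of the genes matched to EXPB2, Sobic.001G542200 was lower in SRN39 (log2 fold change -1.10, SE 0.23, adjusted p = 0.0016) and Sobic.001G300700 was higher (0.89, SE 0.25, adjusted p = 0.011), a call lost without replicate 1 of SQR at 35 d (adjusted p = 0.051). Libraries of Sobic.001G300700 overlapped at 35 d, with 50.3 CPM in replicate 4 of SRN39 and 54.9 CPM in replicate 2 of SQR. Sobic.001G542100, adjacent to Sobic.001G542200, was not called (-0.23, SE 0.28, adjusted p = 0.54). Sobic.001G198800, matched to an inhibitor of invertase or pectin methylesterase, was higher (0.97, SE 0.29, adjusted p = 0.014). Its call was lost without replicate 1 (adjusted p = 0.054) or replicate 2 (adjusted p = 0.051) of SQR at 35 d. The pectin methylesterase PME31 match Sobic.001G252300, an enzyme that alters pectin charge, stood at -0.58 (SE 0.24, adjusted p = 0.065) and was called lower without replicate 1 of SQR (adjusted p = 0.03) or of SRN39 (adjusted p = 0.024) at 35 d.

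Of the 5 genes for sugar and central carbon metabolism, 4 were higher in SRN39 at 35 d and 1 was not called, against 16.3% higher over all tested genes. The same 4 were already higher at 28 d, the age that chose them. Of all tested genes called higher at 28 d, 69.9% were also called higher at 35 d. The match of the starch-degrading beta-amylase BAM1, Sobic.001G508800, averaged 1.90 ± 0.593 CPM (SD, n = 3) in SQR and 10.1 ± 4.89 CPM (SD, n = 4) in SRN39 (log2 fold change 2.41, SE 0.48, adjusted p = 9e-04). Sobic.001G155500, a transketolase-family gene, averaged 6.2 ± 1.21 and 26.3 ± 4.99 CPM (log2 fold change 2.08, SE 0.21, adjusted p = 1.2e-06). Transketolase passes carbon units between sugar phosphates. Sobic.001G360000, matched to the kinase that inactivates pyruvate dehydrogenase, averaged 11.4 ± 4.09 and 50.2 ± 6.37 CPM (log2 fold change 2.13, SE 0.22, adjusted p = 1.6e-06).

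The fourth gene of that list was Sobic.001G543400, matched to a phosphoglycerate mutase family protein. Its annotation does not name the cofactor-independent type of Sobic.001G384100, so the genes are not compared. Sobic.001G543400 was higher in SRN39 at 35 d (log2 fold change 0.58, SE 0.21, adjusted p = 0.036). Its call was lost without replicate 1 or 3 of SQR or any 1 of the 4 SRN39 libraries of 35 d, with adjusted p of 0.05 to 0.13. In all it was lost in 11 of 24 alternatives, which include no filter, library totals without TMM scaling, only the groups compared, the replicate block and thinning. The galactinol synthase match Sobic.001G391300, which makes a precursor of raffinose sugars, was not called (-0.50, SE 0.30, adjusted p = 0.22).

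Of the 4 genes for synthesis of wall polysaccharides, 2 were higher in SRN39 at 35 d and 2 were not called. Over all tested genes 16.3% were called higher, and these 4 too were chosen by their difference at 28 d. Sobic.001G462200, matched to a pyrophosphorylase that makes nucleotide sugars, was higher (log2 fold change 0.85, SE 0.23, adjusted p = 0.0091). Its libraries overlapped, with 23.2 CPM in replicate 2 of SRN39 and 23.6 CPM in replicate 2 of SQR at 35 d. The callose synthase match Sobic.001G521500 was higher by 0.41 (SE 0.15, adjusted p = 0.043). That call was lost without replicate 2 or 3 of SQR at 35 d, replicate 1, 2 or 4 of SRN39 at 35 d or replicate 4 of SRN39 at 28 d, with adjusted p of 0.05 to 0.11. The XXT1 match Sobic.001G396600, which adds xylose to xyloglucan, stood at 0.63 (SE 0.36, adjusted p = 0.19). The cellulose synthase-like gene Sobic.001G242000 stood at 0.51 (SE 0.28, adjusted p = 0.17) and was called higher without replicate 3 of SRN39 at 35 d (adjusted p = 0.042).

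Of the 3 other wall and glycan hydrolases, 1 was lower in SRN39, 1 was higher and 1 was not called. The chitinase match Sobic.001G247900, of a family that cuts chitin of fungal walls, was lower in SRN39 at 35 d (log2 fold change -1.37, SE 0.37, adjusted p = 0.009). Sobic.001G221800, matched to a glucosylceramidase that removes glucose from membrane lipids, was higher (0.88, SE 0.20, adjusted p = 0.003). The xylanase-type gene Sobic.001G466000 was not called (-0.36, SE 0.23, adjusted p = 0.25).

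**Figure D5:**
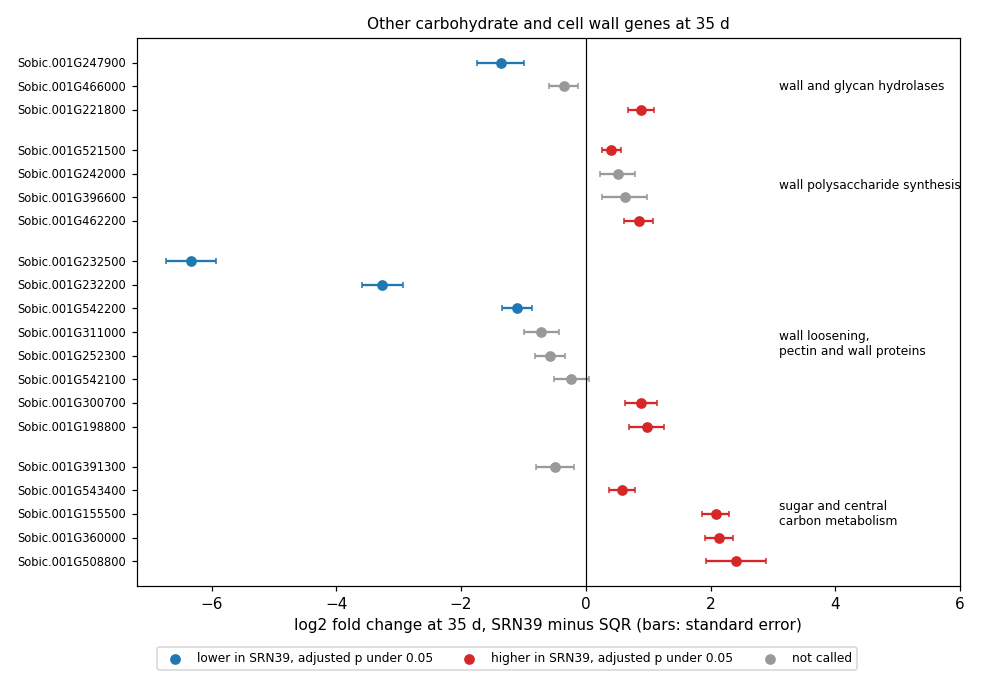
Log2 fold change of SRN39 against SQR at 35 d for the 20 other carbohydrate and cell wall genes, by list, with standard errors as bars and colour for the call. Values run from -6.33 in the glycine-rich wall protein gene Sobic.001G232500 to 2.41 in the beta-amylase match Sobic.001G508800.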

How the data were processed

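Total RNA of whole roots was made into 3′ mRNA-Seq libraries (QuantSeq). The authors pooled technical replicates, trimmed reads, mapped them to the genome of BTx623, which is neither variety, with STAR, and deposited whole-number counts per gene without normalization. Reads that match several places or carry variety-specific mismatches can therefore alter counts. Not given in the sources used here were STAR's version, the annotation version and the strand setting. One read comes from each transcript end, so levels were not scaled by length. The table has 1 further column. Its name follows the pattern of the SQR libraries of 35 d, as replicate 4, but none of the sample descriptions used here matches it. It was left out, so SQR at 35 d has n = 3 in every value and test.

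Genes with over 1 CPM in at least 3 of 15 libraries were kept (18473). All 4 groups entered 1 quasi-likelihood fit in edgeR 4.0.16 (R 4.3.3) with TMM scaling, and the Benjamini-Hochberg adjustment ran over all tested genes at 0.05, two-sided. Alternatives used limma 3.58.1 and DESeq2 1.42.0. The fit was also run on simulated data, whose outcome is not reported here. Replicate numbers were not used as pairs in the main fit. Its p-values set a difference against the spread between libraries, which the fit shares over the 4 groups. Counting intervals cover counting error only.

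The 7 genes and the lists of 20 others were chosen with earlier results of these data known. All their identifiers begin with the same prefix, so genes with other prefixes are missing from these lists. Genes named are the 7, listed genes called at 35 d, up to 2 of each list not called, and the nearest profiles of 2 genes. Roles come from best matches in Arabidopsis or rice given by the study. The gene identifiers could not be joined to the reference table used here, so coordinates, sequences, family lists and a check of root marker genes were not analysed here.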

Additional observations from a re-analysis of the deposited data

Results flagged for a closer look

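The callose synthase match Sobic.001G521500 differed in opposite directions at the 2 ages, without overlap between the libraries of SQR and SRN39 at either. At 28 d it averaged 42.8 ± 3.60 CPM (SD, n = 4) in SQR and 27.5 ± 3.88 CPM (SD, n = 4) in SRN39. At 35 d it averaged 32.9 ± 2.43 CPM (SD, n = 3) in SQR and 43.8 ± 4.19 CPM (SD, n = 4) in SRN39. The log2 fold change at 35 d exceeded that at 28 d by 1.05, and this difference between ages was not tested, since the value at 28 d chose the gene. Its call at 35 d was lost in 11 of 24 alternatives. Among 81 sets of 4 libraries of the 27 genes, none held a library far from the others, where chance gives about 1 in 20. That count leaves out SQR at 35 d, which has 3 libraries. In that group Sobic.001G179400 stood at 17.2 CPM in replicate 3 against 7.04 and 6.79 CPM. Sobic.001G384600 stood there at 4.28 CPM in replicate 1 against 2.03 and 2.02 CPM.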

How the results depend on the processing

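The count of genes called at 35 d stayed at 4 of 7 in all 25 alternatives, and each of the 4 genes kept its call in 24 of 24 fits: other filters, scalings and tools, thinning, and each library left out. The listed genes called ranged from 9 to 14. With the replicate number as a block (replicate block) the counts were 4 and 11. Residuals of libraries with the same replicate number in different groups had correlations of -0.22 to 0.17. What the number stands for is not given in the sources used here, and these values do not settle whether it pairs libraries. The value of Sobic.001G123300 at 35 d reversed in 2 fits, without replicate 2 of SQR and without replicate 3 of SRN39, and ranged from -0.15 to 0.43 over libraries left out. At 35 d, 610 of 648 single-gene values kept their direction and side of the threshold. The cause of the changes was not tested. Sobic.001G384600, Sobic.001G357900 and Sobic.001G179400 are limited by depth in SRN39, where libraries held as few as 3, 9 and 9 reads at 35 d.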
